A study of Homo sapiens with 60 samples.

Results

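The water extract of Cnidium rhizome (Cnidii Rhizoma, a dried rhizome used in Korean herbal medicine) was compared between its highest and lowest dose in SW1783 cells, a human astrocytoma line. The 6 libraries were found by their labels, 3 labelled high dose (500 µg/mL) and 3 labelled low dose (20 µg/mL), out of 60 libraries in the series. All 6 were treated for 24 h and carry sample codes of the same set, set 5. The 3 libraries at the medium dose (100 µg/mL) and the 9 libraries of prepared Rehmannia root (Rehmanniae Radix Preparata) at the same 3 doses belong to that set too, and all 18 were fitted together. The plants were extracted in hot water, and the lyophilised extract was given to cells grown in Leibovitz L-15 medium with 10% serum. The series compares herbal extracts at graded doses with reference compounds and a DMSO vehicle. The 3 vehicle libraries carry codes of another set, so they enter no test here. No label says whether replicates came from separate cultures, so each p-value measures only the spread between libraries. That spread was estimated over all 18 libraries of the set. All cells are 1 line, and a single line limits what the values say of other astrocytoma cells.

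Cells answer chemical stress through a few well-described programmes, and those bear on what follows. Proteins that fold in the endoplasmic reticulum (ER) are attended by chaperones, whose genes are switched on by the transcription factors ATF6 and XBP1 when unfolded protein builds up. Metallothioneins are small cysteine-rich proteins that bind zinc and copper, and the zinc-sensing factor MTF1 drives their genes. The factor NRF2 is released from its inhibitor KEAP1 when reactive chemicals modify KEAP1, and it then raises genes for glutathione supply, quinone reduction and NADPH production. NF-kB and related factors drive cytokine and chemokine genes, and astrocytoma cells are known sources of interleukin-8 and prostaglandins.

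Total counts were 24111765 to 26797252 per library at the high dose and 23677092 to 25222650 at the low dose. Mitochondrial genes took 7.001 to 7.595% of the counts at the high dose and 7.136 to 7.828% at the low dose. Of the astrocyte and glioma markers, VIM (vimentin) averaged 5566 CPM (counts scaled to a library total of 1000000) at the high dose and 5418 CPM at the low dose, and CD44 averaged 2824 and 2674 CPM in the same order. Other members of that list were near absent: GFAP had 5 counts over the 3 high dose libraries and 6 over the 3 low dose libraries. AQP4 had 2 and 2, and SOX2 had none in any of the 6. Of the 14 markers 8 were tested, and GJA1 was the 1 called. It was lower at the high dose, a call lost under 9 of 15 alternatives. Summed T and B cell markers stayed at or below 0.149 CPM at the high dose and 0.166 CPM at the low dose. The summed fibroblast and smooth muscle markers ran from 4331 to 4380 CPM at the high dose and from 4647 to 4765 CPM at the low dose, with 1 of 9 tested members called lower (COL1A1). The summed macrophage markers ran from 147 to 151 CPM at the high dose and from 168 to 176 CPM at the low dose, where CD68 was the 1 called member of 4 tested and AIF1, TYROBP and P2RY12 had no count. Their part in the results was not tested. All cells are 1 line, so these sums do not measure numbers of fibroblasts or macrophages. In bulk RNA, fewer cells carrying a transcript and less of it per cell cannot be told apart.

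Few genes passed the test between the 2 doses, and most of their changes were modest. Of 16571 genes tested, 343 passed an adjusted p under 0.05 (2.07%), with 162 higher (0.978%) and 181 lower (1.09%) at 500 µg/mL. An unadjusted p under 0.05 was reached by 2379 genes (14.4%), and DESeq2 called 290 genes. The median size of the called changes was 0.23 on the log2 scale, and 8 of the 343 reached a 2-fold change. All of these 8 were low in level, among them the aldehyde dehydrogenase gene ALDH3A1 with 0.658, 0.664 and 0.71 CPM at the high dose and 0.209, 0.297 and 0.239 CPM at the low dose, whose call ended in 3 of 6 cases when 1 library was left out. The 3 libraries of each dose did not overlap for 341 of the 343 genes, and for 3271 of all 16571 (19.7%). With totals in place of TMM factors as the scaling, 58.5% of the called genes were higher, against 47.2% with TMM.

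**Figure D1:**
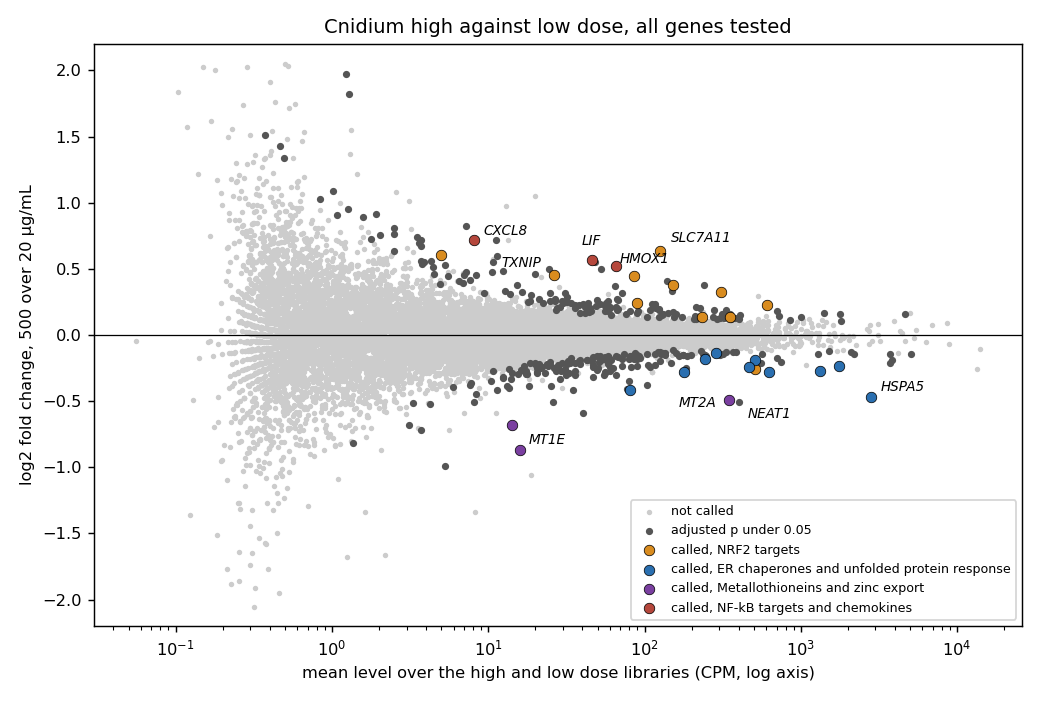
Each point is 1 of the 16571 genes tested, with its mean level over the high and low dose libraries (CPM, log axis) against its log2 fold change at 500 over 20 µg/mL. Coloured points are called members of 4 gene lists: ER chaperones and metallothioneins lie below 0, NF-kB targets lie above 0, and NRF2 targets lie above 0 except 1. Beyond the plotted range of 2.2 lie 28 genes, 1 of them called.

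Genes of ER folding fell at the high dose. Of 18 genes of ER folding and the unfolded protein response, all tested, 10 were lower at the high dose, none was higher and 8 did not pass the test. Over all 16571 genes tested, 1.09% were called lower and 0.978% higher. The lists were chosen with earlier results of these data known, so nothing is concluded from a larger share in this or a later list. The median log2 fold change was -0.19, against -0.001 over all genes, and all 18 values lay below 0. HSPA5 encodes BiP, the main HSP70-type chaperone of the ER, and lies at chr9:125234853-125241330 on GRCh38. It had 2445, 2344 and 2327 CPM in the high dose libraries, against 3380, 3365 and 3089 CPM in the low dose libraries. The lowest low dose library lay above the highest high dose library. HSPA5 fell by 27.6% (log2 fold change -0.47 ± 0.04 SE, n = 3 per dose, edgeR adjusted p = 1.35e-09). HERPUD1, a membrane protein of ER-associated degradation, had 68.1, 69.3 and 70.6 CPM at the high dose and 94.5, 95.4 and 87.9 CPM at the low dose, and the groups did not overlap. It fell by 25.1% (edgeR adjusted p = 1.37e-07). HSP90B1, the ER paralogue of HSP90, fell by 17.4% (edgeR adjusted p = 1.37e-06), and the disulfide isomerase PDIA4 fell by 17.6% (edgeR adjusted p = 7.1e-08). The calcium-binding chaperone CALR fell by 15.1%, the HSP110-type chaperone HYOU1 by 15.3%, and the secreted ER factor MANF by 17.5%. Further losses were those of PDIA6, SEL1L and DNAJB11, whose log2 fold changes were -0.19, -0.18 and -0.13. XBP1 had 109, 114 and 115 CPM at the high dose and 132, 117 and 114 CPM at the low dose, groups that overlap, and it did not pass the test (edgeR adjusted p = 0.304). Leaving out 1 library ended the call of MANF in 5 of 6 cases, of SEL1L in 4 and of DNAJB11 in 3 (highest edgeR adjusted p-values 0.0943, 0.124 and 0.14), and SEL1L and DNAJB11 also lost it with totals as the scaling.

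Promoters of 3 of these chaperone genes are shown because they hold the ER stress element, the sequence through which ATF6 acts with NF-Y. The stretches are the 250 bases before the annotated start, from RefSeq on GRCh38.p14, read 5′ to 3′ along the gene, with matches to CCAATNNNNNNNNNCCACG on either strand in capitals.
HSPA5 (chr9:125241344-125241593, minus strand): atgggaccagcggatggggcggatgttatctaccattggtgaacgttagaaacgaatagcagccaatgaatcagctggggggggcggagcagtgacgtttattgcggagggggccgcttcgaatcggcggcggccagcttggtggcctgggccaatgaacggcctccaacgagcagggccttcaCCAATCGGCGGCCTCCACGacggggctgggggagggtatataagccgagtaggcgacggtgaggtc
HSP90B1 (chr12:103930160-103930409, plus strand): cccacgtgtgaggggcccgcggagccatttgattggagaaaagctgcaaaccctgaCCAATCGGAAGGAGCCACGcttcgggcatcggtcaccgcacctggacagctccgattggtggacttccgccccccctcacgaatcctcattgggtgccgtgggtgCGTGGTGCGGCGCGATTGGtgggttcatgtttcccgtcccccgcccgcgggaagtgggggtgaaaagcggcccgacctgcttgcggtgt
CALR (chr19:12938359-12938608, plus strand): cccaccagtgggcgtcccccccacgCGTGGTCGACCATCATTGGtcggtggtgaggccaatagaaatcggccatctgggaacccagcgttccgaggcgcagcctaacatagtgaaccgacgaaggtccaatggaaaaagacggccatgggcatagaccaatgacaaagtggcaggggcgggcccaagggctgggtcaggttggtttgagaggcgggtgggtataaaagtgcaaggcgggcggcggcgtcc

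The search covered both strands of 35116 promoters, and 26 of them (0.074%) held the motif. Counted by gene, 25 of 27305 (0.0916%) held it, and no test compared the list with that share. All 18 genes of the ER list had a promoter in the table and 6 held a match: HSPA5, HSP90B1, PDIA6, CALR, XBP1 and CRELD2. The first 4 of these 6 were called lower, while CRELD2 and XBP1 were not called. HSPA5 and CALR held 1 match each and HSP90B1 held 2, which lay apart. HERPUD1, with the second largest loss of the list, held no match in this stretch.

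In the list of 22 genes that ATF4 drives when amino acids run short, 1 was higher (SLC7A11, also an NRF2 target) and 3 were lower, with a median log2 fold change of -0.06. DDIT3 encodes CHOP, a transcription factor of prolonged ER stress. It had 21.5, 21.9 and 20.4 CPM at the high dose and 29.5, 33.3 and 28 CPM at the low dose, without overlap. DDIT3 fell by 29.7% (log2 fold change -0.51 ± 0.06 SE, n = 3 per dose, edgeR adjusted p = 6.09e-06). The asparagine synthetase gene ASNS fell by 12.4% and the amino acid transporter gene SLC7A5 by 10.2%, calls that ended in 4 and 3 of 6 cases when 1 library was left out. ATF4 itself had a log2 fold change of 0.02 (edgeR adjusted p = 0.91). Among 14 cytosolic heat shock genes, 2 were higher, HSPA8 by 12.3% and HSP90AB1 by 11.8%, and the median was 0.01. HSPA8 and HSP90AB1 encode the constitutive HSP70 and HSP90 of the cytosol, and the other 12 members of that list did not pass the test.

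Metallothionein transcripts fell at the high dose. Of 9 metallothionein and zinc export genes, 5 passed the filter on low counts, 3 of them were lower and none was higher. The share called lower over all genes tested was 1.09%. The median log2 fold change of the 5 was -0.68. MT1E (chr16:56625475-56627112) had 11.8, 11 and 11 CPM at the high dose, against 21.7, 20.4 and 19.5 CPM at the low dose. Each high dose library was well below each low dose library. The loss was 45.1% (log2 fold change -0.87 ± 0.07 SE, n = 3 per dose, edgeR adjusted p = 1.68e-09). MT1X had 10.5, 10.7 and 11.2 CPM at the high dose and 18.6, 16.6 and 16.9 CPM at the low dose, with no overlap. It fell by 37.6% (edgeR adjusted p = 4.88e-07). MT2A had 300, 282 and 287 CPM at the high dose and 414, 394 and 414 CPM at the low dose, and it fell by 28.9% (edgeR adjusted p = 5.8e-10). The zinc exporter gene SLC30A1, another target of MTF1, had overlapping groups and a log2 fold change of -0.05 (edgeR adjusted p = 0.629). Metallothionein genes are near copies of one another, so the estimated counts may divide shared reads among them, and the division between members is uncertain.

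Promoters of MT2A and MT1X are shown because they hold metal response elements, the sites of MTF1. The stretches are again the 250 bases before the start from RefSeq on GRCh38.p14, with matches to TGCACNC or TGCGCNC on either strand in capitals.
MT2A (chr16:56608334-56608583, plus strand): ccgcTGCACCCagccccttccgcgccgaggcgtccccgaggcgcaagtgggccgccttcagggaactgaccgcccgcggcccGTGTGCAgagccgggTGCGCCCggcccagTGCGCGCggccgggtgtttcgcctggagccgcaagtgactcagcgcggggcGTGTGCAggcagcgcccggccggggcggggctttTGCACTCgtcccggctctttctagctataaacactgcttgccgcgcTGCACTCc
MT1X (chr16:56682220-56682469, plus strand): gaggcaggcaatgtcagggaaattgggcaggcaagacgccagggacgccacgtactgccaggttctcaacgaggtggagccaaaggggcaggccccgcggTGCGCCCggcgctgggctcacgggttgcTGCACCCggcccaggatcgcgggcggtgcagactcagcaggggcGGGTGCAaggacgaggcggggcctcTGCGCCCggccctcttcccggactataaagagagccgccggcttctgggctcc

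MT2A held 7 matches and MT1X held 4, and none overlapped another. This short motif is common, and 24.8% of all promoters held at least 1. Counted by gene, the share was 28.5%. Promoters of 4 of the 9 list genes were in the table, and all 4 held a match, including SLC30A1, which was not called.

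Genes of the NRF2 programme rose. Of 24 NRF2 targets, all tested, 10 were higher, 1 was lower and 13 did not pass the test. Over all genes tested, 0.978% were called higher and 1.09% lower. The median log2 fold change was 0.14, and 22 of the 24 values lay above 0. SLC7A11 (chr4:138164097-138242349), the cystine importer that feeds glutathione synthesis, had 154, 156 and 147 CPM at the high dose and 96.7, 98.4 and 99.3 CPM at the low dose. All high dose libraries lay far above all low dose libraries. It rose 1.55-fold (log2 fold change 0.63 ± 0.04 SE, n = 3 per dose, edgeR adjusted p = 4.09e-12). HMOX1, heme oxygenase 1, had 101, 97.9 and 98.7 CPM at the high dose and 76.1, 70.3 and 71.8 CPM at the low dose. The groups did not overlap, and the rise was 1.36-fold (edgeR adjusted p = 1.37e-07). NQO1, a quinone reductase, had 172, 172 and 173 CPM at the high dose and 136, 133 and 130 CPM at the low dose, a rise of 1.3-fold (edgeR adjusted p = 7.16e-08).

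The remaining NRF2 targets covered thioredoxin, glutathione and NADPH supply. TXNRD1, thioredoxin reductase, rose by 25.4%, and GCLM, the modifier subunit of glutamate-cysteine ligase, rose by 18.4%, while the catalytic subunit GCLC had a difference of 12.3% that did not pass the test (edgeR adjusted p = 0.0543). Of the pentose phosphate enzymes, TKT rose 1.17-fold and PGD 1.1-fold. Leaving out 1 library ended the call of PGD in 2 of 6 cases (highest edgeR adjusted p = 0.0649). AKR1B10, an aldo-keto reductase, had 6.25, 5.98 and 5.87 CPM at the high dose and 4.15, 3.99 and 3.79 CPM at the low dose, and rose 1.52-fold (edgeR adjusted p = 0.00284). AKR1C1 rose 1.37-fold, although its reads may be shared with the near-identical AKR1C2, which was not called. SQSTM1, the autophagy receptor p62, went the other way: it had 475, 461 and 451 CPM at the high dose and 558, 567 and 530 CPM at the low dose, and fell by 16.2% (edgeR adjusted p = 9.33e-06). The core antioxidant response motif TGACNNNGC stood in the promoters of 4 of the 17 list genes found in the RefSeq table and in 13.2% of all genes there.

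**Figure D2:**
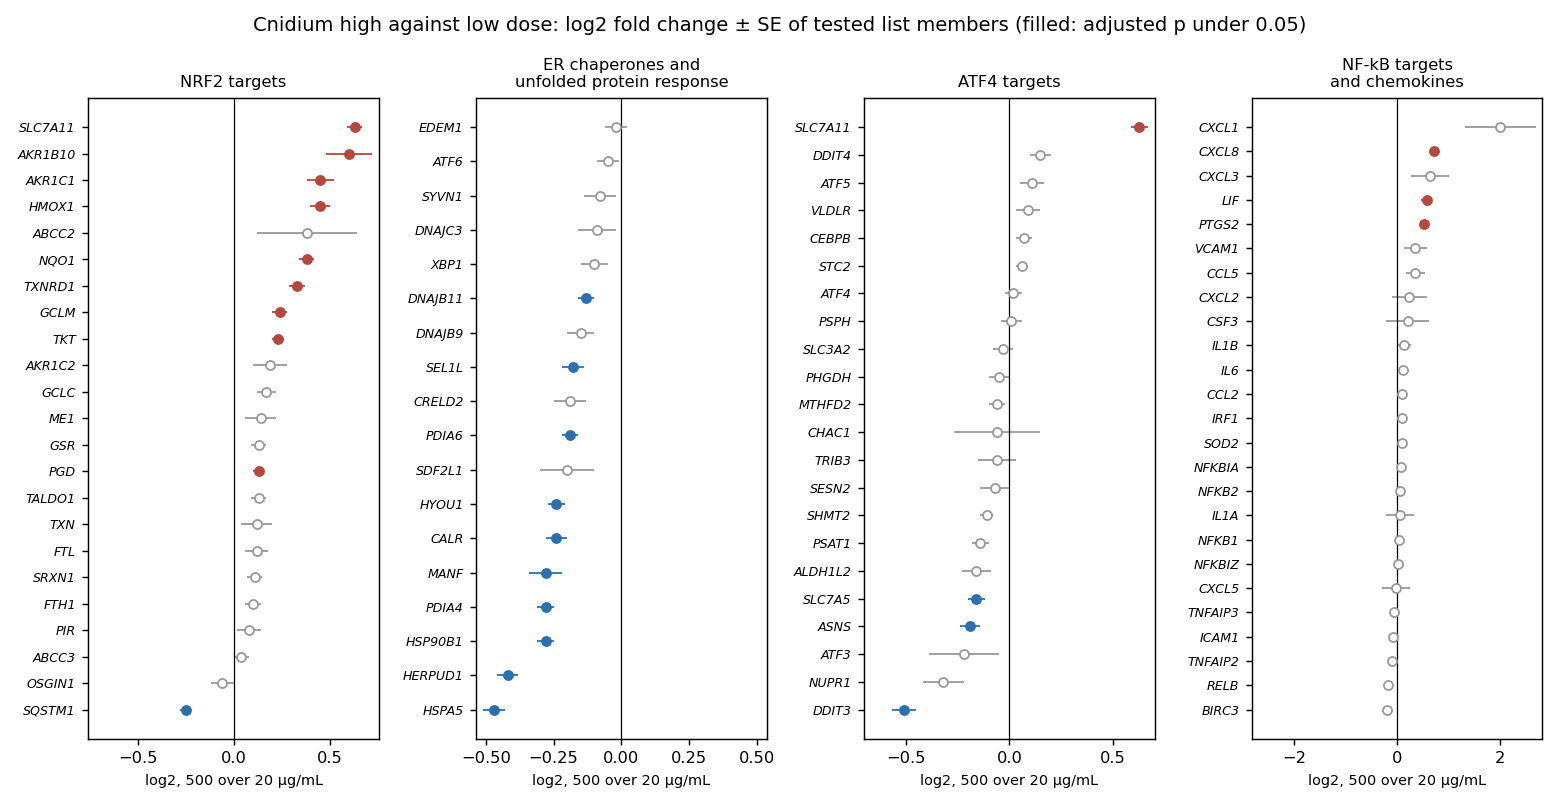
Log2 fold change at 500 over 20 µg/mL, with its SE as a bar, for tested members of 4 gene lists, ordered by size. Filled points passed an adjusted p under 0.05, red where higher and blue where lower: 9 of the 23 NRF2 targets plotted were higher and 10 of 18 ER genes were lower. The horizontal scales differ between panels, and CXCL1 (log2 fold change 2 ± 0.68) was not called.

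Inflammatory genes rose in small number. Of 28 NF-kB targets and chemokines, 25 were tested, 3 were higher, none was lower, and the median was 0.09. The share called higher over all genes tested was 0.978%. CXCL8, the neutrophil chemokine interleukin-8, had 10.5, 10.1 and 9.83 CPM at the high dose and 6.41, 6.53 and 5.54 CPM at the low dose. The groups were clearly apart, and the rise was 1.65-fold (log2 fold change 0.72 ± 0.09 SE, n = 3 per dose, edgeR adjusted p = 5.84e-06). PTGS2, the inducible cyclooxygenase, had 82.5, 74.9 and 73.7 CPM at the high dose and 57.5, 48.6 and 54.4 CPM at the low dose. It rose 1.44-fold (edgeR adjusted p = 2.28e-08). LIF, an interleukin-6 family cytokine, had 50.3, 55.6 and 60.3 CPM at the high dose and 36.9, 34.3 and 40.7 CPM at the low dose, and rose 1.48-fold (edgeR adjusted p = 0.0125). LIF lost its call without the low dose replicate 2 (edgeR adjusted p = 0.0621). IL6 and CCL2 had overlapping groups and did not pass the test, with edgeR adjusted p-values of 0.711 and 0.625.

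The vehicle libraries set these levels in context. Vehicle and extract carry sample codes of different sets, however, and the set cannot be told apart from the treatment. The set is read from the code alone, and every sample title, of vehicle and extract alike, begins with BatchB. CXCL8 averaged 11.0 ± 1.68 CPM in vehicle, PTGS2 85.1 ± 2.46 CPM and LIF 55.0 ± 3.4 CPM (SD, n = 3). For these 3 genes, the high dose means of 10.1, 77.1 and 55.4 CPM on the same scale lay nearer to vehicle than the low dose means of 6.15, 53.4 and 37.2 CPM. SLC7A11 stood differently, with means of 152 CPM at the high dose, 97.9 CPM at the low dose and 98.6 ± 1.71 CPM in vehicle. HSPA5 averaged 2373 CPM at the high dose, 3271 CPM at the low dose and 3497 ± 105 CPM in vehicle. For NEAT1 the means were 333 CPM at the high dose, 470 CPM at the low dose and 288 ± 8.66 CPM in vehicle. Those of AMDHD2 were 11.7, 15.3 and 11.9 ± 1.43 CPM in the same order. For NEAT1 and AMDHD2, unlike HSPA5, the high dose mean lay nearer to vehicle than the low dose mean. No test was made across sets.

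**Figure D3:**
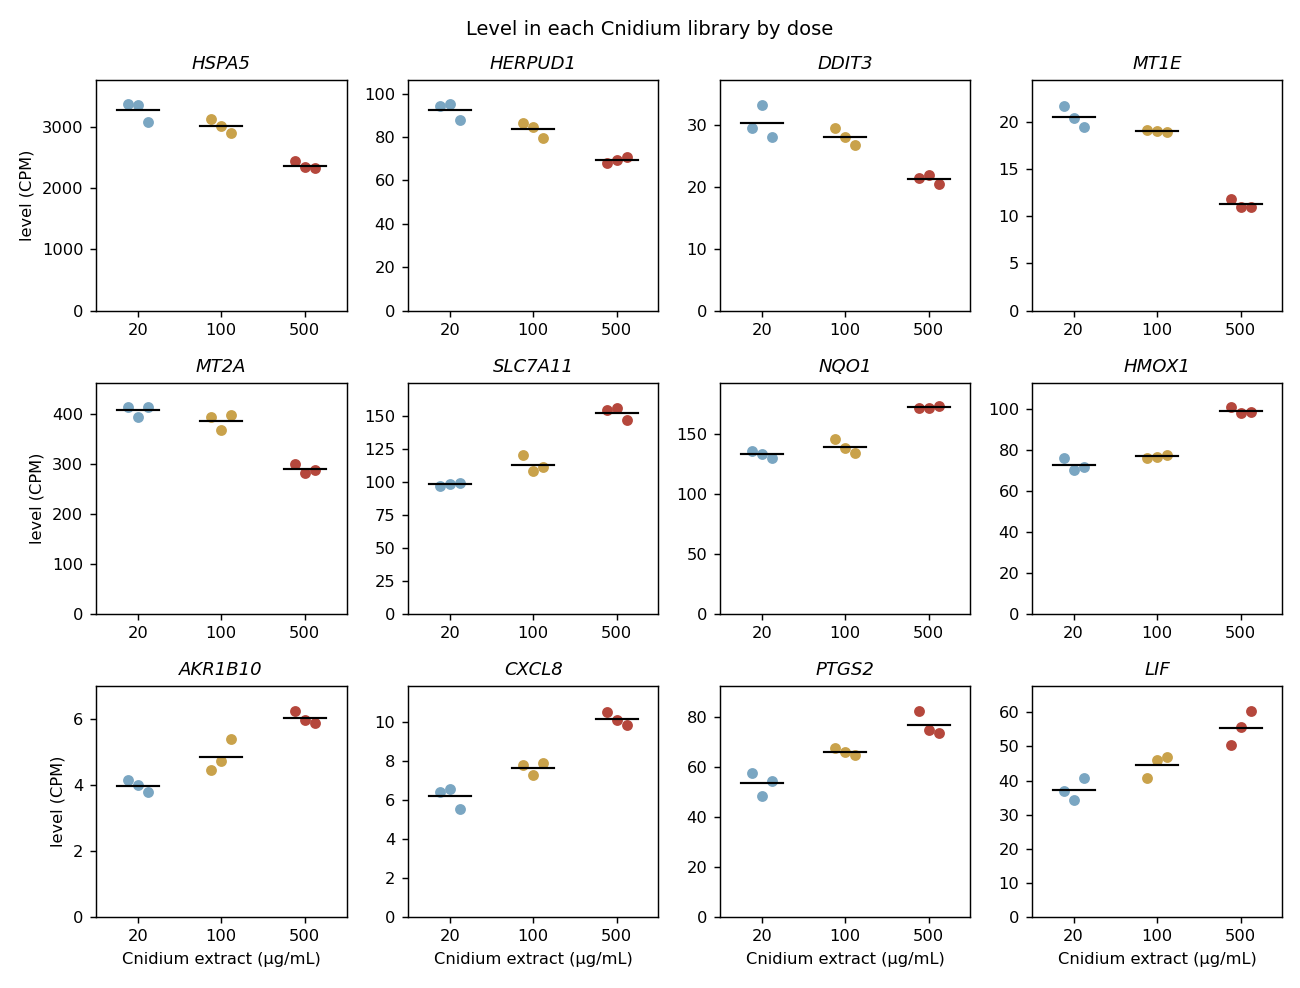
Level (CPM) of 12 genes in each Cnidium library at 20, 100 and 500 µg/mL; points are libraries, 3 per dose, and black lines are means. HSPA5, HERPUD1, DDIT3, MT1E and MT2A are lowest at 500 µg/mL, and the other 7 genes are highest there, with no overlap between the libraries at 500 and at 20 µg/mL.

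Several of the 30 genes with the largest called changes belong to none of these programmes. Among those that rose, KCNE4, a regulatory subunit of potassium channels, had 14.9, 14.2 and 12.6 CPM at the high dose and 8.5, 9.54 and 7.34 CPM at the low dose, a 1.64-fold rise (edgeR adjusted p = 1.48e-05). MIR100HG, a host transcript of microRNAs, had 59, 58.1 and 56 CPM at the high dose and 38.7, 38.2 and 41.2 CPM at the low dose. It rose 1.46-fold (edgeR adjusted p = 2.22e-09), with all high dose libraries above all low dose libraries. DIO2, the deiodinase that makes active thyroid hormone and is an astrocyte enzyme in brain, had 67.9, 60.6 and 57.3 CPM at the high dose and 46.2, 44.3 and 41 CPM at the low dose. It rose 1.41-fold (edgeR adjusted p = 4.88e-07). IGFBP1, a carrier of insulin-like growth factors, rose 1.41-fold, and HS6ST3, a heparan sulfate sulfotransferase, rose 1.4-fold. The histone genes H2AC6 and H2BC12 rose 1.47-fold each, UGT1A7 rose 1.45-fold, MUC1 1.43-fold and ZNF814 1.39-fold. Histone genes have near-identical copies and UGT1A7 shares exons with its neighbours, so their counts are uncertain. Leaving out 1 library ended the calls of H2BC12, MUC1 and ZNF814 in 4 of 6 cases each and of UGT1A7 in 3, with edgeR adjusted p-values of up to 0.221. Outside the 30, PHLDA1, the 1 called gene of 12 for ERK feedback, had 277, 270 and 272 CPM at the high dose and 211, 210 and 208 CPM at the low dose, and rose 1.3-fold (edgeR adjusted p = 1.21e-08).

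Among the genes that fell, NEAT1, the long noncoding RNA that builds nuclear paraspeckles, had 334, 327 and 337 CPM at the high dose and 421, 460 and 532 CPM at the low dose. The low dose libraries were spread widely but all lay above the high dose libraries. NEAT1 fell by 29.5% (edgeR adjusted p = 8.21e-05), and it lost its call when only the high and low dose libraries were fitted (edgeR adjusted p = 0.0912). The long noncoding RNA LINC00973 had 30.6, 33.3 and 33 CPM at the high dose and 50.6, 46.3 and 49.1 CPM at the low dose, a fall of 33.6% (edgeR adjusted p = 2.21e-05). MPDU1, which is needed to use dolichol-linked mannose in glycosylation, had 67.2, 64.8 and 68.1 CPM at the high dose and 90, 87.4 and 88.2 CPM at the low dose. It fell by 24.7% (edgeR adjusted p = 3.97e-07). AMDHD2, a deacetylase of N-acetylglucosamine phosphate, fell by 24.1%, SPAG7 by 24.9%, SNAPC5, a subunit of the small nuclear RNA activating complex, by 25%, and the noncoding RNA LNCAROD by 26.4%. EVI2A fell by 30.3%, and NUTM2D, a member of a family of near copies, by 29.5%. Leaving out 1 library ended the call of EVI2A in 5 of 6 cases (highest edgeR adjusted p = 0.208), of LNCAROD without the low dose replicate 3 (0.052) and of SNAPC5 without the low dose replicate 2 (0.0593). Of the 30 genes, 11 overlap another tested gene in the annotation, 5 of them on the same strand.

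Several lipid, matrix and glucose lists held 1 to 3 called members each, while those of sterol efflux, fatty acid oxidation, hyaluronan and integrins held none. INSIG1 was the 1 called gene of 24 for cholesterol synthesis and uptake and fell by 9.16%. Of 10 fatty acid genes, FADS1 fell by 10.1% and SREBF1, the lipogenic regulator, by 12.5%. The glucose-sensing arrestin TXNIP had 10.2, 12.5 and 14.1 CPM at the high dose and 8.75, 9.33 and 8.54 CPM at the low dose, and rose 1.39-fold (edgeR adjusted p = 0.00945), a call that was lost without the high dose replicate 3 or without the low dose replicate 3 (edgeR adjusted p up to 0.0973). Its relative ARRDC3 rose 1.13-fold. GAPDH rose by 11.4% and LDHA by 7.57% among 17 glycolysis genes, and LDHA lost its call under 11 of 15 alternatives. In the matrix, COL1A1 fell by 9.6%, COL5A1 by 9.71% and fibronectin, FN1, by 9.41%. Of the plasminogen activators, the tissue-type gene PLAT fell by 8.65% and the urokinase gene PLAU rose by 15.0%. GPX1, the cytosolic glutathione peroxidase, fell by 16%. Leaving out 1 library ended the calls of SREBF1 and PLAT in 4 of 6 cases each, of INSIG1 and FADS1 in 3 each, of GAPDH in 2 and of ARRDC3 in 1, with edgeR adjusted p-values of up to 0.169. INSIG1 also lost its call with totals as the scaling.

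The lists together held 676 tested genes, 61 of which were called (9.02%), 27 higher and 34 lower. Over all 16571 genes tested the share was 2.07%. The lists were chosen with earlier results of these data known, so nothing is concluded from the larger share. The other 282 called genes stood on no list. Of 44 pathway lists, 17 had no called member, among them 26 mitosis and kinetochore genes, 24 genes of S phase and replication, 18 immediate early genes, 13 integrin subunits, 20 cytosolic ribosomal protein genes, 20 nuclear and 13 mitochondrial genes of oxidative phosphorylation, and 23 hypoxia targets. Median log2 fold changes of the 17 lists lay between -0.07 (ID genes and BMP feedback) and 0.12 (the EGF receptor and its ligands). Of the 23 hypoxia targets, 10 reached an edgeR p under 0.05 before adjustment, against 14.4% of all genes tested. Their log2 fold changes lay above 0 for 17 and below 0 for 6. A gene that did not pass the test is not shown to be unchanged.

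At 100 µg/mL few differences passed the test. Between the medium and low dose 1 gene was called of 16571 (0.00603%). DESeq2 called 5 there, and 719 genes reached p under 0.05 before adjustment. That gene was PTGS2, with 67.7, 66.3 and 64.8 CPM at the medium dose and 57.5, 48.6 and 54.4 CPM at the low dose (log2 fold change 0.31, edgeR adjusted p = 0.0136), and its call was lost under 8 of 15 alternatives. Between the high and medium dose 66 genes were called (0.398%), 29 higher (0.175%) and 37 lower (0.223%). With totals as the scaling, 60.8% of the genes called there were higher, against 43.9% with TMM. These comparisons share libraries with the comparison of high and low dose, so their values are given side by side only.

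MT1E had 19.1, 19 and 18.9 CPM in the medium dose libraries, which is nearer to its low dose than to its high dose libraries. HMOX1 averaged 72.7 CPM at 20 µg/mL, 76.8 CPM at 100 µg/mL and 99.1 CPM at 500 µg/mL. For both genes, the step from 100 to 500 µg/mL was called and the step from 20 to 100 µg/mL was not. The log2 fold changes of MT1E were -0.75 at high over medium dose (edgeR adjusted p = 8.57e-08) and -0.11 at medium over low dose. Those of SLC7A11 were 0.43 (edgeR adjusted p = 3.7e-08) and 0.20 (edgeR adjusted p = 0.142), and those of HSPA5 were -0.35 (edgeR adjusted p = 8.54e-07) and -0.12. KCNE4, TRIM66, TXNIP and H2AC6 were further named risers between the high and medium dose, with log2 fold changes of 0.58, 0.51, 0.51 and 0.42. MT1X, NUTM2D, MT2A and DDIT3 fell there, with -0.50, -0.44, -0.42 and -0.40. Over the 343 genes called between high and low dose, the medium mean lay between the other means for 335, at a median of 34.2% of the log2 step, which is a description of genes chosen by their end points.

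The Rehmannia extract of the same set, at the same doses, gave a comparison with its own low dose libraries. Between 500 and 20 µg/mL of Rehmannia 1299 genes were called (7.84%), 614 higher (3.71%) and 685 lower (4.13%). Of the 343 genes called for Cnidium, 201 were called for Rehmannia as well, which is 58.6% of the Cnidium list and 15.5% of the Rehmannia list. In 198 of these the direction was the same. AKAP12, LDHA and FBXO32, named here after their values were seen, went opposite ways. The ER list had 9 of 18 members lower after Rehmannia with a median of -0.17, and the NRF2 list had 8 higher and 1 lower with a median of 0.17. Of the 5 metallothionein and zinc export genes tested, 4 were lower after Rehmannia, with a median of -0.44. Of the 25 NF-kB targets and chemokines tested, 7 were higher and none was lower, with a median of 0.20.

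The test of the difference between the 2 dose effects called 74 genes (0.447%), 34 with a higher (0.205%) and 40 with a lower (0.241%) log2 fold change for Cnidium, and 16 of these were among the 343. DESeq2 called 81 genes in that test. HMOX1 rose more with Cnidium: its log2 fold changes were 0.45 for Cnidium and 0.08 for Rehmannia, a difference of 0.37 ± 0.07 SE (edgeR adjusted p = 0.00267). MT2A fell more with Cnidium, with -0.49 against -0.14 for Rehmannia (edgeR adjusted p = 0.00033), while the differences for MT1E and MT1X did not pass the test (edgeR adjusted p-values of 0.676 and 0.984). CXCL8 rose less with Cnidium, with 0.72 against 1.42 for Rehmannia (edgeR adjusted p = 0.00347). For HSPA5 and SLC7A11 the differences were -0.10 ± 0.05 and 0.03 ± 0.06 SE, and neither passed the test.

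Several genes of low oxygen and of glucose use differed between the extracts. BNIP3, a mitophagy receptor and hypoxia target, had 114, 115 and 111 CPM at the high dose of Cnidium and 117, 111 and 110 CPM at its low dose. At the high dose of Rehmannia it had 74.9, 78.8 and 73.4 CPM, against 113, 113 and 109 CPM at the low dose. Only the high dose Rehmannia libraries stood apart, and the log2 fold changes differed by 0.57 ± 0.05 SE (edgeR adjusted p = 1.38e-08). CA9, carbonic anhydrase IX, differed by 0.66 (edgeR adjusted p = 8.59e-07) and DDIT4, an inhibitor of mTORC1, by 0.58 (edgeR adjusted p = 3.81e-06), in the same sense. Log2 fold changes of CA9 were 0.13 for Cnidium and -0.53 for Rehmannia, and those of DDIT4 were 0.15 and -0.43. Of 23 hypoxia targets, 6 had a higher log2 fold change for Cnidium in that test and none a lower one, and of 17 glycolysis genes 5 had a higher one. SERPINB2, an inhibitor of urokinase, had log2 fold changes of -0.17 for Cnidium and 0.82 for Rehmannia, and NPTX1, a neuronal pentraxin, had 0.21 and 1.40. The retinaldehyde dehydrogenase gene ALDH1A3 rose in both, by 0.14 with Cnidium and 0.55 with Rehmannia on the log2 scale (difference -0.41, edgeR adjusted p = 3.08e-07).

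**Figure D4:**
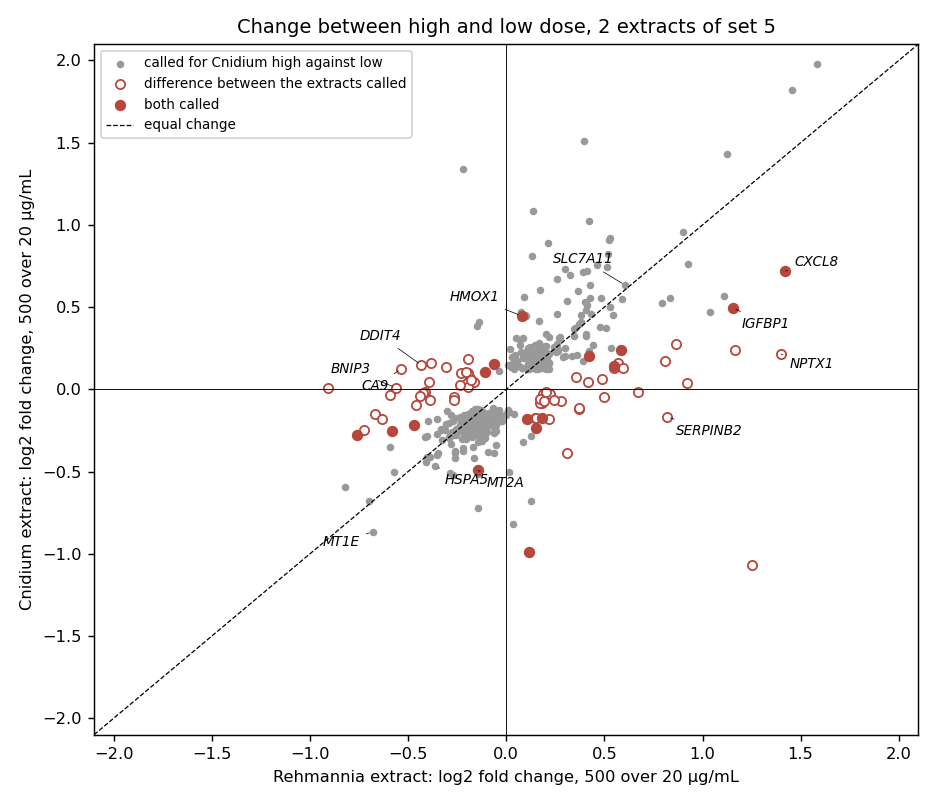
Log2 fold change at 500 over 20 µg/mL for the Cnidium extract (vertical) against the Rehmannia extract (horizontal), for 400 genes called for Cnidium or in the test of the difference; 1 such gene lies outside the range of 2.1. Red points differ between the extracts: CXCL8, IGFBP1 and NPTX1 lie below the dashed line of equal change, and CA9, BNIP3, DDIT4 and HMOX1 lie above it.

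The number of calls depended on which libraries shared the estimate of spread. With all 19 groups of the series in the fit 40 genes were called, 17 of them among the 30 named above, and with Sagunja low replicate 1 left out of that fit 167 were called. In the first of these fits 3 NRF2 targets, 3 ER genes and 3 metallothioneins were called, and in the second the counts were 9 (8 higher, 1 lower), 9 and 3. Without Cnidium high replicate 1, 2 or 3 the count was 223, 195 or 220. Without Cnidium low replicate 1, 2 or 3 it was 243, 230 or 208. No named gene changed direction under any alternative.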

How the data were processed

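Libraries were made with a directional mRNA kit from 1 µg of total RNA and read as paired ends, per the labels' protocols. The authors deposited expected counts per Ensembl gene. The submitters' processing notes name RSEM 1.3.3, the aligner STAR 2.7.3a, the trimmer Trim Galore 0.6.5 and the hg38 (GRCh38) genome, and the annotation release and the strand setting of the counting are not given in the sources used here. Expected counts divide reads that map to several genes, which blurs near copies, and 90.67% of the values were whole. The table holds 60675 genes and 279 columns, of which 60 match samples here and 219 were not used.

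Expected counts were rounded to whole numbers, and positions came from GENCODE 29. The 18 libraries of set 5 (6 groups) were fitted together with edgeR 4.0.16 (filterByExpr, TMM, robust quasi-likelihood test), with Benjamini-Hochberg adjustment over all 16571 genes tested and a call at an adjusted p under 0.05. The set was fitted alone so that libraries of 1 set shared the estimate of spread. That choice also left out a library of another set, Sagunja low replicate 1. It moved the number of calls from 167 to 40 when it entered a fit over all groups. The set alone gave 343 calls, so that library does not account for the step from 167 to 343, whose cause was not tested. CPM are on TMM-scaled totals. SE are the log2 fold change divided by the root of the F value. DESeq2 1.42.0 was an alternative. Replicates of each group differed by more than counting noise, so each was kept as 1 sample. Such a difference cannot show whether replicates came from separate cultures. The script was tested on simulated data.

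The gene lists, with 738 genes, and the members were chosen with earlier results of these data known. The genes named for high against low dose are the 15 with the largest change in each direction among called genes with at least 5 CPM in the higher group, groups that do not overlap and a proper symbol. For each other comparison 5 per direction were named, by size, or by the smallest p for the difference between extracts. Any list member could be given, and some that entered the counts are not reported here. Motifs were searched in 250 bases before each start. The labels give the vehicle as 0.1% DMSO while the series text gives 2%, and no DMSO level is given for the extracts.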

Additional observations from a re-analysis of the deposited data

Results flagged for a closer look

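The following genes are listed because their dose effect (log2 fold change at 500 over 20 µg/mL) differed between the Cnidium and the Rehmannia extract in edgeR's test of the difference, which shares no library between the extracts. Each value is the Cnidium effect minus the Rehmannia effect.

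Among hypoxia, glycolysis and lipid genes the difference was 0.66 for CA9, 0.58 for DDIT4, 0.57 for BNIP3, 0.22 for GAPDH, 0.21 for LDHA and 0.32 for the desaturase gene SCD. The Cnidium and Rehmannia effects were 0.13 and -0.53 for CA9, 0.15 and -0.43 for DDIT4, and 0.01 and -0.56 for BNIP3. They were 0.16 and -0.06 for GAPDH, 0.11 and -0.11 for LDHA, and -0.07 and -0.39 for SCD. None of the 23 hypoxia targets was called between the Cnidium doses. SAMD11 differed by 0.52, with -0.15 for Cnidium and -0.67 for Rehmannia. Of the antioxidant genes, HMOX1 differed by 0.37 and GPX1 by 0.33. GPX1 fell with both extracts, by 16% with Cnidium.

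Among the genes with a lower value for Cnidium the difference was -1.18 for NPTX1, -0.99 for SERPINB2, -0.70 for CXCL8, -0.66 for IGFBP1, -0.48 for THBS1, -0.43 for STC2 and -0.22 for PLAU. The retinaldehyde dehydrogenase gene ALDH1A3 differed by -0.41, the ubiquitin ligase gene FBXO32 by -0.36 and MT2A by -0.35.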

How the results depend on the processing

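The count of genes called between the high and low dose of Cnidium stayed within 1.5 times its 343 under another scaling, DESeq2, no low-count filter, the compared groups alone and a fit without the robust option. With all 19 groups it was 40, and 167 without Sagunja low replicate 1. Without 1 library it ran from 195 to 243. Medium against low gave 1 gene, against 5 with DESeq2, 15 without the filter, 0 with all 19 groups, 0 without the robust option and 0 to 3 without 1 library. With all 19 groups less Sagunja low replicate 1 it was again 0, and with the compared groups alone 1, a different gene. High against medium gave 66, against 119 without the filter, 5 and 20 in the 2 fits over 19 groups, and 28 to 46 without 1 library. Rehmannia gave 1299, against 809 with its 2 groups alone, 141 and 612 in the fits over 19 groups, and 734 to 1139 without 1 library. The test between extracts gave 74, against 140 without the filter, 7 and 33 over 19 groups, and 48 to 84 without 1 library. Fits without 1 library or with 2 groups alone rest on fewer libraries by construction, and the cause of the other changes was not tested.

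No named gene reversed. Of the 30 genes named for high against low, 14 were called under every alternative run and 21 under every one within the set. MUC1 and EVI2A lost their call under 9 of 15.

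The labels give all groups replicate numbers, but same-numbered Cnidium libraries at high and low dose deviated together by correlations of 0.092, 0.122 and 0.153, not all above 0.1, so a number is treated as a name. Every high dose library did correlate best with its own number. With the replicate number as a block, 564 genes were called between high and low dose, 105 between high and medium, 1 between medium and low, 1648 for Rehmannia and 116 between extracts.

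With 3 libraries per dose of at least 23677092 counts each, the smallest called change was 0.11 on the log2 scale, and genes of low level have wide errors, as in CXCL1 (2 ± 0.68, not called).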
